A study of Homo sapiens with 42 samples.

Results

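The messages described here encode the nuclear subunits of respiratory complexes II, III and IV, the electron carrier cytochrome c, and factors that assemble complex IV. They were taken by symbol, from a list chosen with earlier results of these data known. The rows are those of the deposited count table whose gene name equals 1 of 33 listed symbols, among 57353 gene names. Of these, 4 encode complex II, 9 complex III, 1 cytochrome c, 12 complex IV and 7 complex IV assembly factors. All 33 were among the 12939 genes that passed the filter on low counts and were tested.

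The cells were MOLM-13, an acute myeloid leukemia line with the FLT3-ITD allele, which leaves the receptor tyrosine kinase FLT3 switched on. Cultures were kept for 12 h either in RPMI, a standard medium, or in hBMSC-CM, a mixture of equal parts RPMI and medium conditioned by the human stromal line HS-5. In RPMI they received vehicle, 3 nM quizartinib (AC220, a FLT3 inhibitor) or quizartinib with 10 nM everolimus (an mTORC1 inhibitor), the last being called combo. In hBMSC-CM they received vehicle, quizartinib, everolimus or combo at the same doses. Poly(A) RNA of the whole lysate (input) and of heavy polysomes (messages carrying several ribosomes, isolated after cycloheximide on a sucrose gradient) was sequenced. This gave 42 libraries, 3 per condition and fraction. Same-numbered input and polysome libraries of a condition are taken here as 1 culture, which makes 21 cultures, although the labels do not state this. All results come from 1 cell line. No comparison used everolimus alone in RPMI.

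Complex II passes electrons from succinate to ubiquinone, complex III passes them from ubiquinol to cytochrome c, and complex IV hands them to oxygen. Complexes III and IV also pump protons. Cytochrome c has another role: once released from mitochondria it starts the caspase cascade of apoptosis. Complexes III and IV are built from subunits of both genomes, so messages read by cytosolic ribosomes must be matched with those read inside mitochondria. Strong dependence on oxidative phosphorylation has been reported for leukemia stem cells and for drug-resistant acute myeloid leukemia cells.

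Input libraries held 19.4 to 37.2 M counts and polysome libraries 21.5 to 38.8 M. The labelled cell type was borne out by its markers: 8 of 8 hematopoietic markers passed the filter, with summed input levels of 1250 to 2080 CPM (library counts scaled to a common total and, by TMM, for composition). Of 11 stromal markers 2 passed, COL1A1 and TAGLN, and 5 to 7 had no count in the libraries of a group. The summed stromal level in input was 2.44 to 6.27 CPM with vehicle in RPMI and 13.3 to 39.7 CPM with quizartinib in RPMI, and its part in the results was not tested. Replicates with everolimus alone lay much closer together than the others. The chi-square of their counts per degree of freedom, where sampling noise alone gives about 1, was 4.96 to 7.51 between input libraries and 7.05 to 17.1 between polysome libraries, against 30.2 to 224 and 31.1 to 308 within the other 6 conditions. One input library stood apart for the members: the third replicate of vehicle in hBMSC-CM was more than 1.5 times above both other replicates for 13 of the 33 members, against 13.3% of tested genes. COX4I1 was at 535, 527 and 1030 CPM there, UQCRQ at 74.5, 76.5 and 168 CPM and COX8A at 39.9, 35.0 and 88.0 CPM. Polysome libraries of replicate 2 were as far above their replicates for 9 members with combo in hBMSC-CM, against 11.1% of tested genes. The same held for 8 members with combo in RPMI, against 13.6%, and for 7 with quizartinib in hBMSC-CM, against 8.5%. Medians over the 33 members in comparisons with vehicle in hBMSC-CM are given below with and without the culture of replicate 3. Counts of calls and of groups without overlap use all cultures unless stated. The study describes its replicates as biological, while the labels name no source for each.

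The sequences around transcription start sites differ among members in ways the selection did not use. RefSeq promoter windows (GRCh38.p14, 250 bases before to 50 after the start) were matched by symbol for 26 members. The letters CCGGAAG, a core of the site of GABP (nuclear respiratory factor 2), stood on either strand in 15 of these 26 members (57.7%), in 24.0% of the tested genes with a window and in 10.3% of all windows. The core of the nuclear respiratory factor 1 site, likewise on either strand, stood in 7 (26.9%), against 14.1% of tested genes and 5.78% of all windows. A match is a description of letters, not of binding. The stretch from 80 bases before to 20 after the start is printed for the cytochrome c gene, whose input level moved most, and for UQCRQ and SURF1, which moved in opposite directions and both hold CCGGAAG, in capitals.
CYCS (chr7:25125241-25125340, minus strand): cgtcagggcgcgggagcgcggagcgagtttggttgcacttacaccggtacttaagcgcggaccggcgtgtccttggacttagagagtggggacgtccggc
UQCRQ (chr5:132866562-132866661, plus strand): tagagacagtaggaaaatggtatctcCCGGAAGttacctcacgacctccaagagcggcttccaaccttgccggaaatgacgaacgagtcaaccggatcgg
SURF1 (chr9:133356468-133356567, minus strand): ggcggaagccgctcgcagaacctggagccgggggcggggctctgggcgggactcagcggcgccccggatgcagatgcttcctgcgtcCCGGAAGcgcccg

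Transcripts that begin with C and a run of pyrimidines are known as a class whose translation depends on mTORC1. A start of C followed by at least 4 further pyrimidines was found in 4 of the 26 members, COX7C, COX7A2L, UQCRH and COX4I1, and in 7.83% of tested genes with a window. Their starts are given from 10 bases before to 20 after the start, with the pyrimidine run in capitals, beside UQCRFS1 and SDHB, which have no such run.
COX7C (chr5:86617931-86617960, plus strand): tcccatctttCTTTTCagtccttgcgcacc
COX7A2L (chr2:42361198-42361227, minus strand): gaggcggggtCCTTCTCTggggcggtcgcg
UQCRH (chr1:46303688-46303717, plus strand): cttacaagtcCTTCTTgatcctgaactggg
COX4I1 (chr16:85799685-85799714, plus strand): cggccttgctCTCTTCCggtcgcgggacac
UQCRFS1 (chr19:29213132-29213161, minus strand): ggtcgtccctgtgaccggcttggcggttgg
SDHB (chr1:17054013-17054042, minus strand): tggggctgacgtcaggagccaagatggcgg

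Without drug, the members spanned a wide range of input levels. Per kilobase of the main transcript, the mean input level in RPMI with vehicle was highest for COX4I1 (868 CPM per kb), the largest nuclear subunit of complex IV, COX6B1 (663) and UQCRH (422), the hinge protein of complex III. This order depends on the transcript model: per kilobase of the union of all exons COX6B1 was highest at 237, followed by COX5B (170), UQCRH (169), COX5A (143) and COX4I1 (137). The assembly factors were low on this scale, at 3.50 for SCO1, 5.36 for COX10, 6.61 for COX15 and 15.2 for SURF1, whereas the copper chaperone COX17 stood at 87.5. Cytochrome c stood at 21.8 CPM per kb, with a long 3′ end in its transcript model. SCO2, a copper carrier, had 12 to 34 counts per library in this group, so its values are imprecise. SDHA, the flavoprotein of complex II, stood at 3.26 CPM per kb, but rows of its pseudogenes held 35.6% to 79.4% of the counts of SDHA and its pseudogenes together, so its level is uncertain. For COX6A1 that share was 8.82% to 19.6%. Exon bases of 18 members overlap another gene in the annotation. For 11 members, SURF1 and COX4I1 among them, a gene on the other strand is overlapped, and whether counting used strand is not stated. SDHA, SDHD, UQCR11, COX6A1, COX7C, COX8A and COX17 overlap a gene on their own strand only. SCO2, with TYMP, and COX15 do so as well as on the other strand. Counting by strand would not separate reads in the same-strand overlaps.

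Quizartinib lowered cytochrome c and a set of complex III and IV messages in RPMI. In input RNA 11 of the 33 members passed the test (edgeR quasi-likelihood, Benjamini-Hochberg adjusted p under 0.05), against 34.6% of all tested genes. Of these, 10 were lower, a direction taken by 18.0% of all tested genes, and 1 was higher, as were 16.6%. All 3 quizartinib values lay below all vehicle values for 18 members and above them for 3, against 27.2% and 28.5% of tested genes. The median log2 difference over the members was −0.40, and over all tested genes 0.08.

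**Figure D1:**
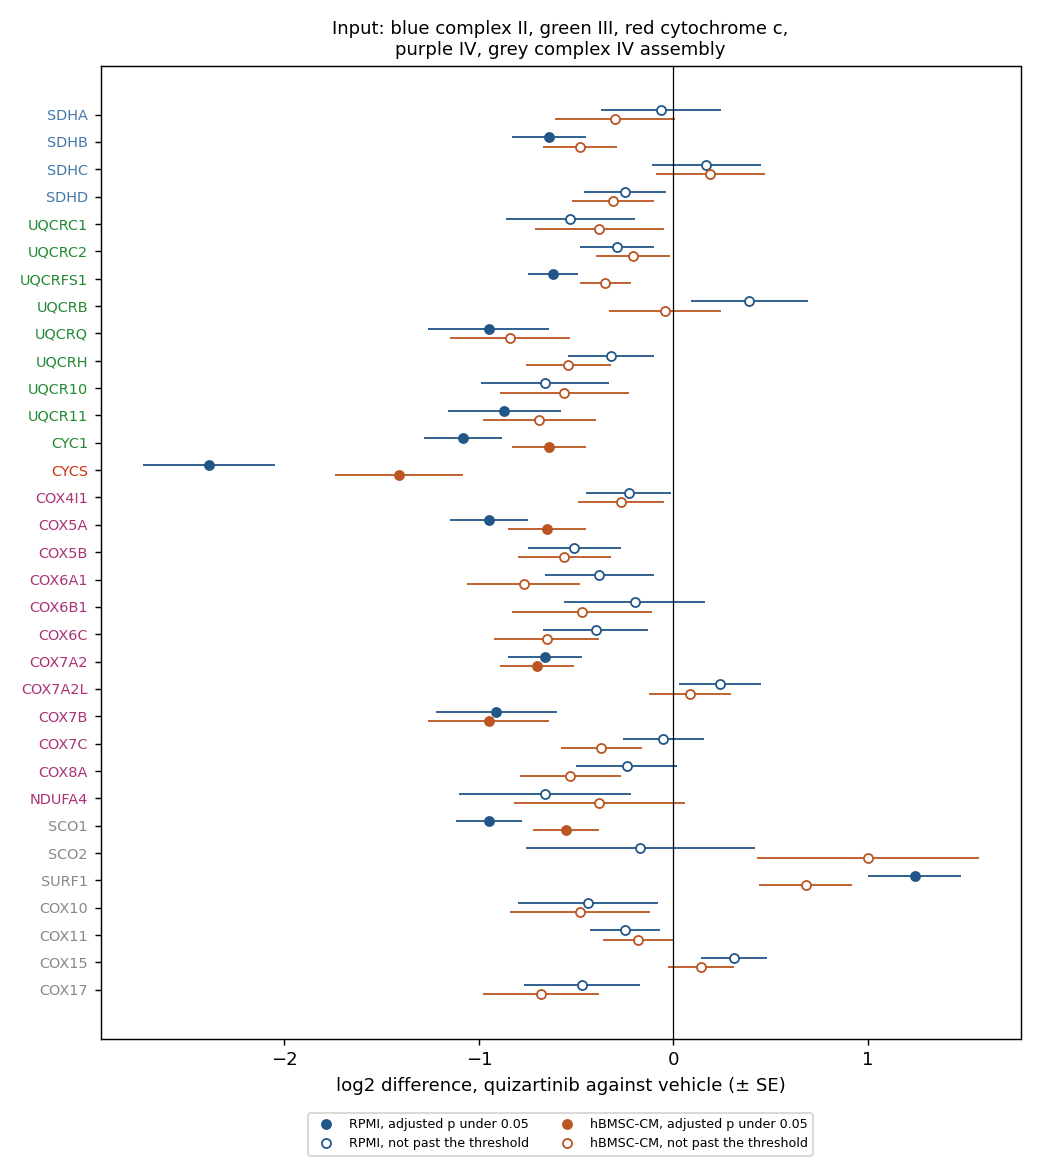
Log2 difference of input level between quizartinib and vehicle (x axis, ± SE, 3 cultures per group) for the 33 members (rows), in RPMI (blue points) and hBMSC-CM (orange points). Filled points passed an adjusted p of 0.05. CYCS lies farthest left in both media, and SURF1 is the only filled point to the right of 0.

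CYCS, on chromosome 7 (25118656 to 25125260, minus strand), showed the largest fall. Its input level was 129, 128 and 98.7 CPM in the 3 vehicle cultures in RPMI and 21.8, 28.8 and 17 CPM with quizartinib. The groups did not overlap, and the log2 difference was −2.39 ± 0.34 (SE, n = 3, edgeR adjusted p = 8.96e-07), a 5.25-fold fall. The gene has 42 named pseudogenes in the annotation, and the 40 with a row of counts held 0.238% to 11.2% of the counts of the family.

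In complex III, 4 of 9 members were called lower. A negative log2 difference was found for 8 of the 9, and 7 were lower without overlap. CYC1, which encodes cytochrome c1 and hands electrons to cytochrome c, was at 279, 222 and 250 CPM with vehicle and at 133, 118 and 104 CPM with quizartinib, a log2 difference of −1.08 ± 0.20 (edgeR adjusted p = 3.87e-05). Every quizartinib value lay below every vehicle value. UQCRQ, a small subunit, fell by 0.95 on the log2 scale, UQCR11 by 0.87, and the Rieske iron-sulfur protein UQCRFS1 by 0.62. The core proteins did not pass the test without a block, with −0.53 ± 0.33 for UQCRC1 and −0.29 ± 0.19 for UQCRC2.

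In complex IV, 3 of 12 members were called lower. A negative log2 difference was found for 11 of the 12, and 6 were lower without overlap. COX5A was at 229, 172 and 166 CPM with vehicle and at 118, 98.1 and 77.7 CPM with quizartinib, a log2 difference of −0.95 ± 0.20 (edgeR adjusted p = 0.000242). These groups did not overlap either. COX7B fell by 0.91 and COX7A2 by 0.66 on the log2 scale. COX4I1 did not pass, at −0.23 ± 0.22, nor did COX7C, at −0.05 ± 0.21.

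Complex II showed 1 call among 4 members, the iron-sulfur subunit SDHB, which fell by 0.64 on the log2 scale. SDHA was at −0.06 ± 0.31 and the membrane anchors SDHC and SDHD were at 0.17 ± 0.28 and −0.25 ± 0.21.

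The assembly factors moved in both directions. SCO1, which delivers copper to complex IV, was at 36.1, 34.6 and 29.9 CPM with vehicle and at 22.4, 16.1 and 13.6 CPM with quizartinib, a log2 difference of −0.95 ± 0.17 (edgeR adjusted p = 2.57e-05). SURF1, required for building the COX1 module, was at 14.4, 15.8 and 19.5 CPM with vehicle and at 35.6, 33 and 48.9 CPM with quizartinib, a log2 difference of 1.24 ± 0.24 (edgeR adjusted p = 0.000102). SCO1 was lower and SURF1 higher without overlap. Exon bases of SURF1 and of SURF2, its neighbor on the opposite strand, overlap, so reads of both cannot be told apart there if counting ignored strand. COX10 and COX15, enzymes of heme a synthesis, and COX11 and COX17 did not pass.

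In hBMSC-CM 6 members passed the test, all lower, against 12.3% of tested genes called, 6.84% lower and 5.46% higher. Without overlap between the groups, 13 members were lower and 1 was higher, against 17.2% and 16.9% of tested genes. They were CYCS, CYC1, COX5A, COX7A2, COX7B and SCO1, which had all fallen in RPMI. The median log2 difference was −0.48 over members and 0.01 over all tested genes. Without the vehicle culture of replicate 3 it was −0.31 over the members, with 27 of 33 negative in place of 28. CYCS was at 104, 107 and 105 CPM with vehicle and at 35.8, 49.0 and 34.3 CPM with quizartinib, a log2 difference of −1.41 ± 0.33 (edgeR adjusted p = 0.00427). COX7B was at 161, 159 and 303 CPM with vehicle and at 88.1, 99.4 and 135 CPM with quizartinib, a log2 difference of −0.95 ± 0.31 (edgeR adjusted p = 0.0366). The groups did not overlap for either gene, although the vehicle culture of replicate 3 stood high for COX7B. COX7A2 fell by 0.70 on the log2 scale, COX5A by 0.65, CYC1 by 0.64 and SCO1 by 0.55. Without the vehicle culture of replicate 3, COX7A2, COX7B and SCO1 no longer passed. Without that of replicate 1, COX5A, CYC1 and SCO1 no longer passed. SURF1 was 0.68 ± 0.24 higher and did not pass (edgeR adjusted p = 0.0564).

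Libraries with the same replicate number deviated together in these conditions, and a fit that kept the replicate number as a block called more members. In hBMSC-CM it called 13 members, against 20.7% of tested genes: COX5B, COX6A1, SDHB, UQCR11, UQCRFS1 and UQCRQ were added lower and SURF1 higher (adjusted p = 0.00235). With a separate block in each fraction it called 18, against 29.4%, the further members being COX17, COX6C, COX8A, UQCR10 and UQCRH, all lower. In RPMI the replicate block called 12 members, against 42.3% of tested genes, the added one being COX5B, lower (adjusted p = 0.012). With a block in each fraction 16 were called there, against 48.9%: UQCRC1 (adjusted p = 0.00958), COX17 (adjusted p = 0.0304), NDUFA4 (adjusted p = 0.00761) and UQCR10 (adjusted p = 0.00549) were added as well, all lower. The hBMSC-CM count also rested on single cultures: it was 11 without replicate 2 of the vehicle cultures and 1 without replicate 2 of the quizartinib cultures.

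**Figure D2:**
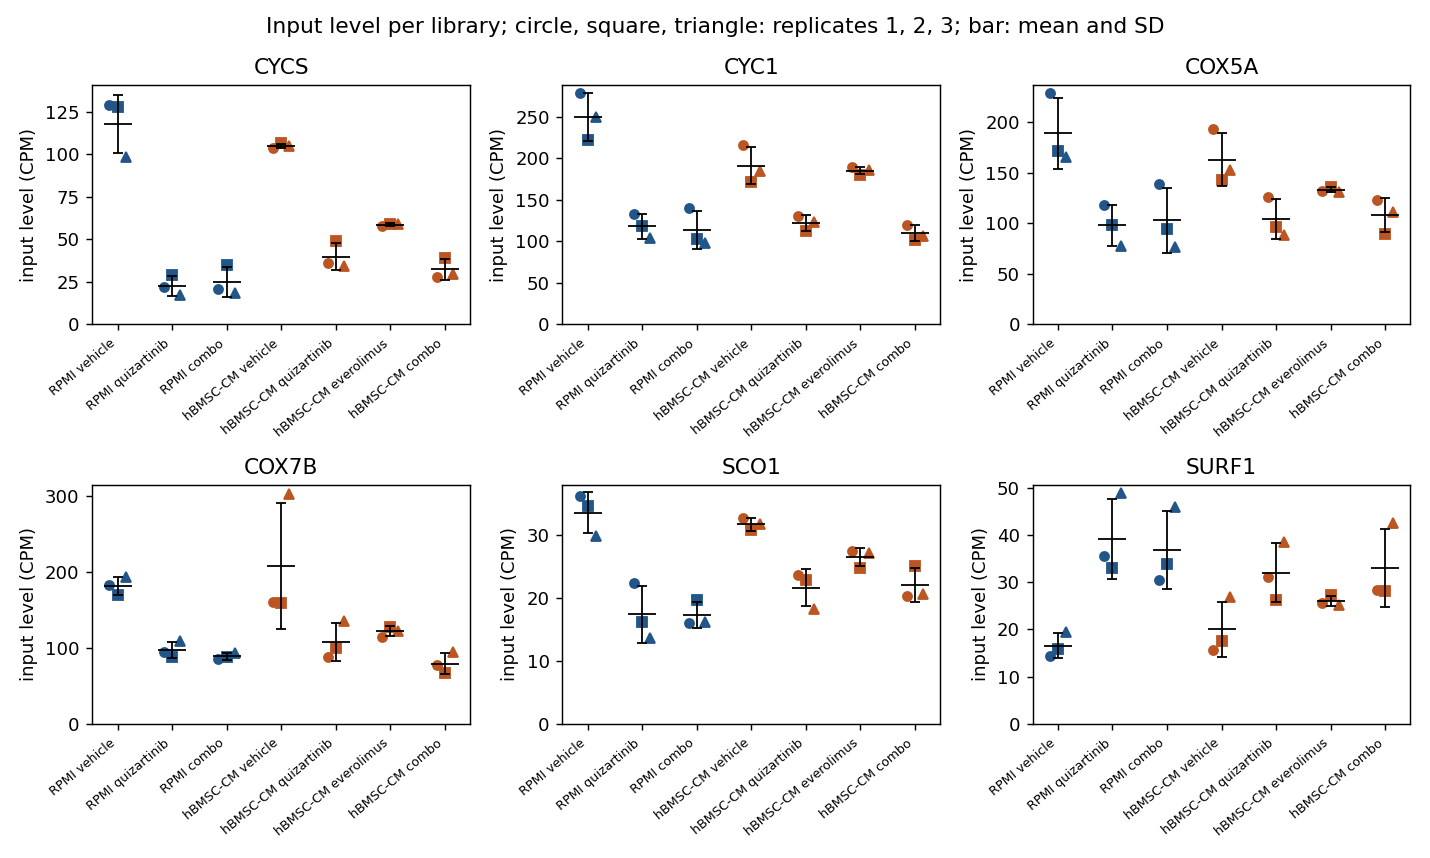
Input level in CPM (y axis, from 0) of 6 members in each of the 7 conditions (x axis), with 1 point per library (circle, square and triangle for replicates 1, 2 and 3) and the mean ± SD, RPMI in blue and hBMSC-CM in orange. CYCS fell from about 118 CPM to 22.5 CPM on quizartinib in RPMI and from about 105 CPM to 39.7 CPM in hBMSC-CM, and SURF1 ran the other way.

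With vehicle, none of the 33 members differed in input between hBMSC-CM and RPMI by edgeR (0 at an unadjusted p under 0.05, 0 by limma voom and 0 by DESeq2), against 1.51% of tested genes called and 1.3% called higher. For 1 member, COX17, the hBMSC-CM values lay above all RPMI values, and for 1, CYC1, below them, against 7.97% and 8.16% of tested genes. The median over the members was 0.02 (18 of 33 positive) with all cultures and −0.12 (27 of 33 negative) without replicate 3 of vehicle in hBMSC-CM, so its sign rested on that culture. Under quizartinib the count was also 0 (2 at an unadjusted p under 0.05, 0 by limma voom and 0 by DESeq2), against 8.16%. The cytochrome c message was nevertheless higher in hBMSC-CM in all 3 same-numbered pairs of quizartinib cultures, and its groups did not overlap. Its log2 difference was 0.82 ± 0.33 (edgeR adjusted p = 0.139), and it passed with the replicate number as a block (adjusted p = 0.00906) or with a block in each fraction (adjusted p = 0.000524). The quizartinib effect itself was 0.98 ± 0.46 less negative in hBMSC-CM than in RPMI for CYCS (edgeR adjusted p = 0.443, and 0.00761 with a block in each fraction), and none of the members passed this test of the difference between media by edgeR, limma voom or DESeq2 (1 at an unadjusted p under 0.05), against 1.96% of tested genes.

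Adding everolimus to quizartinib moved no member past the threshold in input. By edgeR, limma voom and DESeq2 the count was 0 in RPMI (1 at an unadjusted p under 0.05), against 0.00773% of tested genes, and 0 in hBMSC-CM (0 at an unadjusted p under 0.05), against 0.24%. CYCS was at 27.7, 39.3 and 29.8 CPM with combo in hBMSC-CM, and its difference from quizartinib was −0.30 ± 0.32. The median difference over the members was −0.15 in hBMSC-CM and −0.01 in RPMI.

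Everolimus alone in hBMSC-CM gave a negative log2 difference in input for 29 of the 33 members, with a median of −0.35, and of −0.02 over all tested genes. Without the vehicle culture of replicate 3 the median was −0.19, with 26 of 33 negative. By replicate number it was −0.29, −0.14 and −0.70. These are not matched pairs: deviations of same-numbered input libraries correlated at only −0.0147, −0.000365 and −0.011 between these 2 conditions. None passed by edgeR, limma voom or DESeq2 (7 at an unadjusted p under 0.05), against 0.41% of tested genes. For 16 members the 3 everolimus values lay below all vehicle values and for 1 above them, as they did for 13.5% and 14.2% of tested genes. CYCS was at 57.7, 59.3 and 59.1 CPM, against 104, 107 and 105 CPM with vehicle, without overlap, and the log2 difference was −0.84 ± 0.33 (edgeR adjusted p = 0.37). The fit shares 1 estimate of spread per gene among all groups, and the everolimus replicates were closer together than those of any other condition. They also lacked the replicate pattern shared by the other conditions, and its part in these differences was not tested.

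The heavy polysome share of a message was measured as polysome minus input, the log2 polysome level less the log2 input level of the same condition. Reads in a fraction are shared among messages, so the value is relative to other messages and does not count ribosomes. Over the 7 conditions 9 members were called higher in all and 7 higher in some, 7 were called lower in at least 1, and 10 were called in none. Of all tested genes 20.6% were called higher in all, 43% lower in at least 1 and 16.8% in none. The share called higher in only some was not computed. With vehicle in RPMI 14 passed the test, all 14 higher, against 65.4% of tested genes called, 31.5% higher and 33.9% lower. The counts in the other conditions were 18 with quizartinib in RPMI (12 higher), 16 with combo in RPMI (11 higher), 14 with vehicle in hBMSC-CM (12 higher), 15 with quizartinib (14 higher), 13 with everolimus (12 higher) and 16 with combo (14 higher). In those conditions 57.9%, 59.3%, 63.6%, 58.7%, 58.6% and 63.0% of tested genes were called, so the shares of members called were below the background. Called higher were 31.2%, 31.7%, 29.6%, 29.7%, 27.9% and 32.9% of tested genes, and lower 26.7%, 27.6%, 34.0%, 28.9%, 30.7% and 30.1%. Scaled by library size alone, the median of all tested genes moved from −0.06 to −0.61 with vehicle in RPMI, and the calls there became 10 higher and 8 lower. In the same order as above, the other conditions then gave 7 higher and 9 lower, 8 and 8, 8 and 12, 10 and 6, 11 and 1, and 9 and 9. The medians of all tested genes there were −0.29, −0.22, −0.63, −0.46, −0.36 and −0.37. With vehicle in RPMI 27 of 33 members lay above the median of all tested genes under either scaling. Shares of tested genes called with library size alone are not given here, so these counts are not read as a property of the members.

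**Figure D3:**
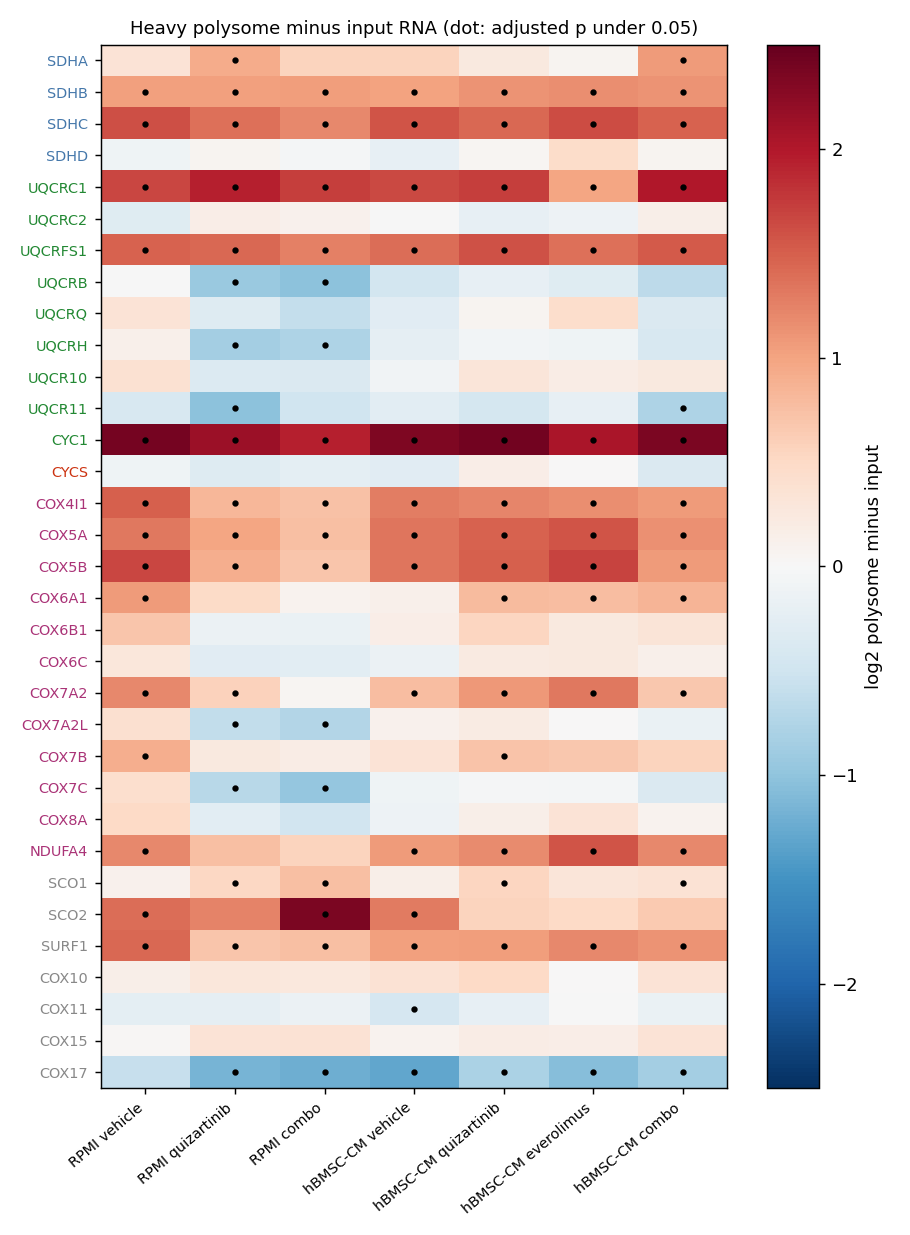
Log2 polysome minus input (color, red above and blue below 0) of the 33 members (rows, name color by complex: blue II, green III, red cytochrome c, purple IV, grey assembly) in the 7 conditions (columns), with TMM scaling. A dot marks an adjusted p under 0.05. CYC1 is red throughout at 1.94 to 2.42, and COX17 is blue throughout.

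High polysome shares were found in 9 members, which were called higher in all 7 conditions, as were 20.6% of tested genes: SDHB and SDHC of complex II, UQCRC1, UQCRFS1 and CYC1 of complex III, COX4I1, COX5A and COX5B of complex IV, and SURF1. With library size alone, 6 of them (SDHB, SDHC, UQCRC1, UQCRFS1, CYC1 and COX5A) were still called higher in all 7, as were 11.3% of tested genes. COX5B then passed in 6, COX4I1 in 5 and SURF1 in 4. CYC1 was highest, at 2.57, 2.57 and 1.93 in the 3 vehicle cultures in RPMI, and its fitted value was 2.39 ± 0.20 (edgeR adjusted p = 1.48e-10). UQCRC1 was at 2.00, 2.12 and 0.48 in the same cultures, with the culture of replicate 3 low, and the fitted value was 1.67 ± 0.34 (edgeR adjusted p = 8.61e-05). UQCRFS1 lay between 1.26 and 1.59 over the conditions, and SDHB had the narrowest range of the 9, from 1.00 to 1.16.

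Low polysome shares were found in 7 members, called lower in at least 1 condition, as were 43% of tested genes: COX17 in 6, UQCRB, UQCRH, UQCR11, COX7A2L and COX7C in 2 each, and COX11 in 1. These counts depended on the scaling. With library size alone 16 members were called lower in at least 1 condition, against 54.1% of tested genes, with COX17 in 7, UQCRH and UQCR11 in 6, COX7C and COX11 in 5, and UQCRB and COX7A2L in 4. With RLE factors COX11 was called in none, and COX7C and COX7A2L were each also called higher in 1 condition. COX17 was at −1.12, −0.42 and −1.95 with quizartinib in RPMI, and its fitted value was −1.17 ± 0.31 (edgeR adjusted p = 0.00159). UQCR11, the smallest of the proteins at 56 residues, was at −0.87, −0.75 and −1.47 in the same cultures (fitted value −1.02 ± 0.29, edgeR adjusted p = 0.00351). For both messages all 3 cultures were below 0. Cytochrome c was between −0.36 and 0.17 in the 7 conditions and was called in none. With library size alone CYCS was between −0.82 and −0.28 and was called lower in 2 of the 7, and with a block in each fraction it was called lower with combo in hBMSC-CM (−0.43, adjusted p = 0.0248).

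NDUFA4, first described in complex I and since assigned to complex IV, shows how far the replicates could part. With vehicle in RPMI its value was 0.05 in replicate 1, 1.78 in replicate 2 and 1.56 in replicate 3, and with combo in hBMSC-CM it was 0.06, 2.10 and 0.94. Replicate 1 was the lowest in each of the 6 conditions other than everolimus, where it was between −0.26 and 0.23. With everolimus alone the 3 values were 1.36, 1.52 and 1.77.

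The 4 messages of complexes III and IV that mitochondria make themselves are translated inside the organelle, and all were far lower in polysomes. With vehicle in RPMI MT-CO3 was at −4.11 ± 0.48 (edgeR adjusted p = 2.21e-08) and MT-CYB at −3.61 ± 0.45. All 4 were called lower in each of the 7 conditions, and none was called in input on quizartinib, where their median log2 difference was 0.37 in RPMI.

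Proteins of different length had different polysome shares. The 12 members under 100 residues had a median of 0.40 with vehicle and −0.31 with quizartinib in RPMI, the 9 members of the next length class 1.07 and 0.47, and the 7 members of 266 to 325 residues 1.40 and 1.03. The 5 longest, of 410 to 664 residues, had medians of 0.15 and 0.35, so the medians did not follow length throughout. The 233 tested genes under 100 residues went from 0.01 to −0.56, and their median change on quizartinib was −0.53, against −0.68 for the 12 members. Over the 33 members, Spearman's rho between protein length and polysome minus input was 0.19 with vehicle, 0.65 with quizartinib and 0.70 with combo in RPMI. It ranged from 0.22 to 0.53 over the conditions in hBMSC-CM. These points share libraries. Over the 10811 tested genes with a protein length rho lay between −0.25 and 0.01. With library size alone the median of the members under 100 residues with vehicle in RPMI was −0.15, so its sign depended on the scaling.

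**Figure D4:**
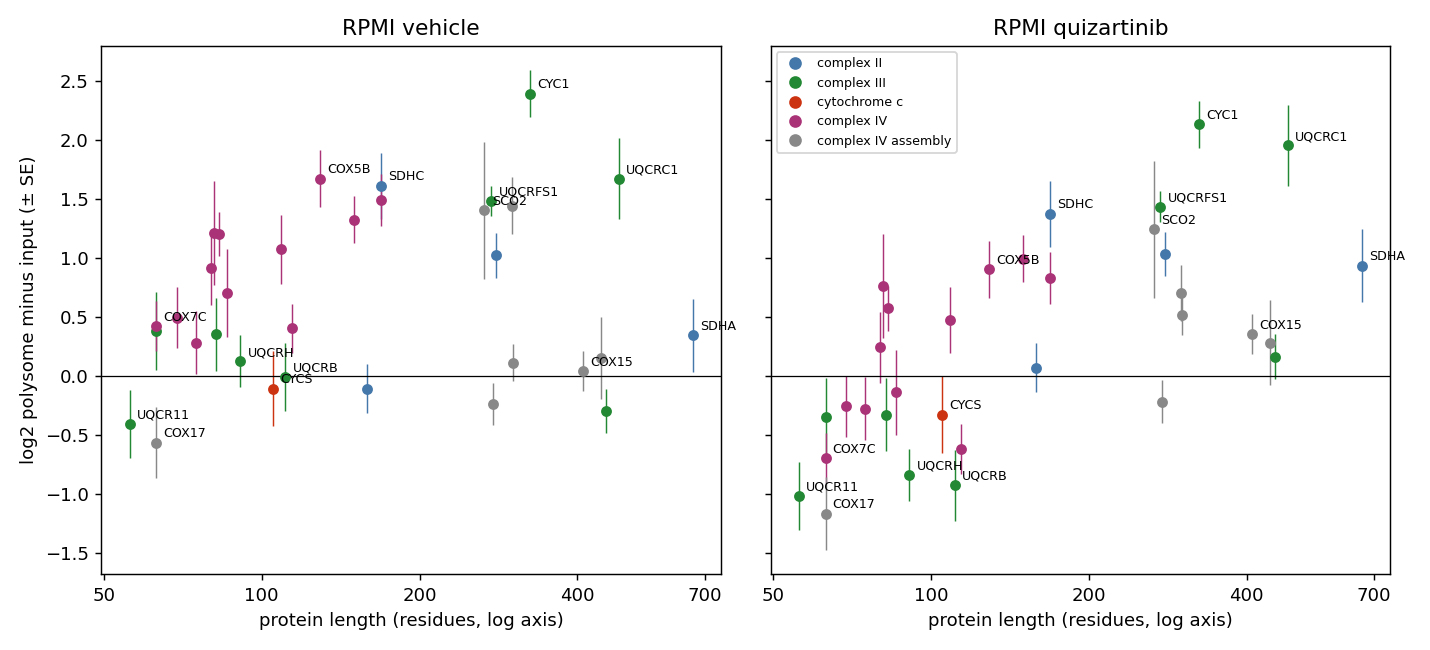
Log2 polysome minus input (y axis, ± SE) against protein length in residues (log x axis) for the 33 members with vehicle (left) and quizartinib (right) in RPMI, colored by complex. The 12 members under 100 residues had a median of 0.40 on the left and −0.31 on the right, while CYC1, UQCRC1 and UQCRFS1 stayed above 1.

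In RPMI, 1 member, COX7C of complex IV, changed in polysome share on quizartinib beyond its change in input. The change in polysome minus input was negative for 24 of 33 members, with a median of −0.56, and 0.15 over all tested genes. All 12 complex IV members were negative, from −1.12 to −0.33. COX7C passed, lower, against 1.55% of tested genes called and 1.28% called lower. For 9 members the quizartinib values lay below all vehicle values and for 2 above them, against 6.48% and 13.3% of tested genes. Its polysome minus input was −0.07, 0.71 and 0.59 with vehicle and −0.79, −0.62 and −0.68 with quizartinib, without overlap, while its input level was 166, 138 and 141 CPM and 148, 126 and 155 CPM. The change was −1.12 ± 0.29 (edgeR adjusted p = 0.0383). It did not pass with a block per culture (adjusted p = 0.0743), with library size alone, or without any 1 of 5 of the 6 cultures, the exception being replicate 1 of the vehicle cultures.

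The next largest changes were in COX7A2L, a factor of respiratory supercomplexes, at −1.02 ± 0.30 (edgeR adjusted p = 0.0725), and UQCRH, at −0.96 ± 0.31 (adjusted p = 0.115). COX7A2L was at 0.30, 0.76 and 0.08 with vehicle and at −0.46, −0.31 and −1.19 with quizartinib. UQCRH was at −0.32, 0.48 and 0.13 and at −1.12, −0.61 and −0.83. Neither overlapped. With the replicate number as a block COX7A2L passed too (adjusted p = 0.0324), against 3.79% of tested genes. With a block in each fraction 8 members passed, all lower, against 11.7%: COX7C, COX7A2L, UQCRH, UQCRB, COX5B, SURF1, COX4I1 and COX8A.

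COX7C, COX7A2L, UQCRH and COX4I1 are the members whose start sequences, shown above, carry a pyrimidine run. Their median change in RPMI was −0.99, from −1.12 to −0.66, and that of the other 22 members with a window was −0.46, from −0.83 to 0.59. Among all tested genes the median in RPMI was 0.02 for such starts and 0.21 for others. In hBMSC-CM the medians were 0.085 for these members and 0.23 for the other 22, against 0.05 and 0.11 among tested genes. COX7C (63 residues) and UQCRH (91 residues) are also among the short members described above, and the part of length was not tested. In complex II the changes in RPMI were 0.59 ± 0.44 for SDHA, 0.01 ± 0.27 for SDHB, −0.24 ± 0.39 for SDHC and 0.17 ± 0.29 for SDHD. The core subunits UQCRC1 and UQCRC2 of complex III were at 0.28 ± 0.47 and 0.46 ± 0.27. None of these passed the threshold.

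**Figure D5:**
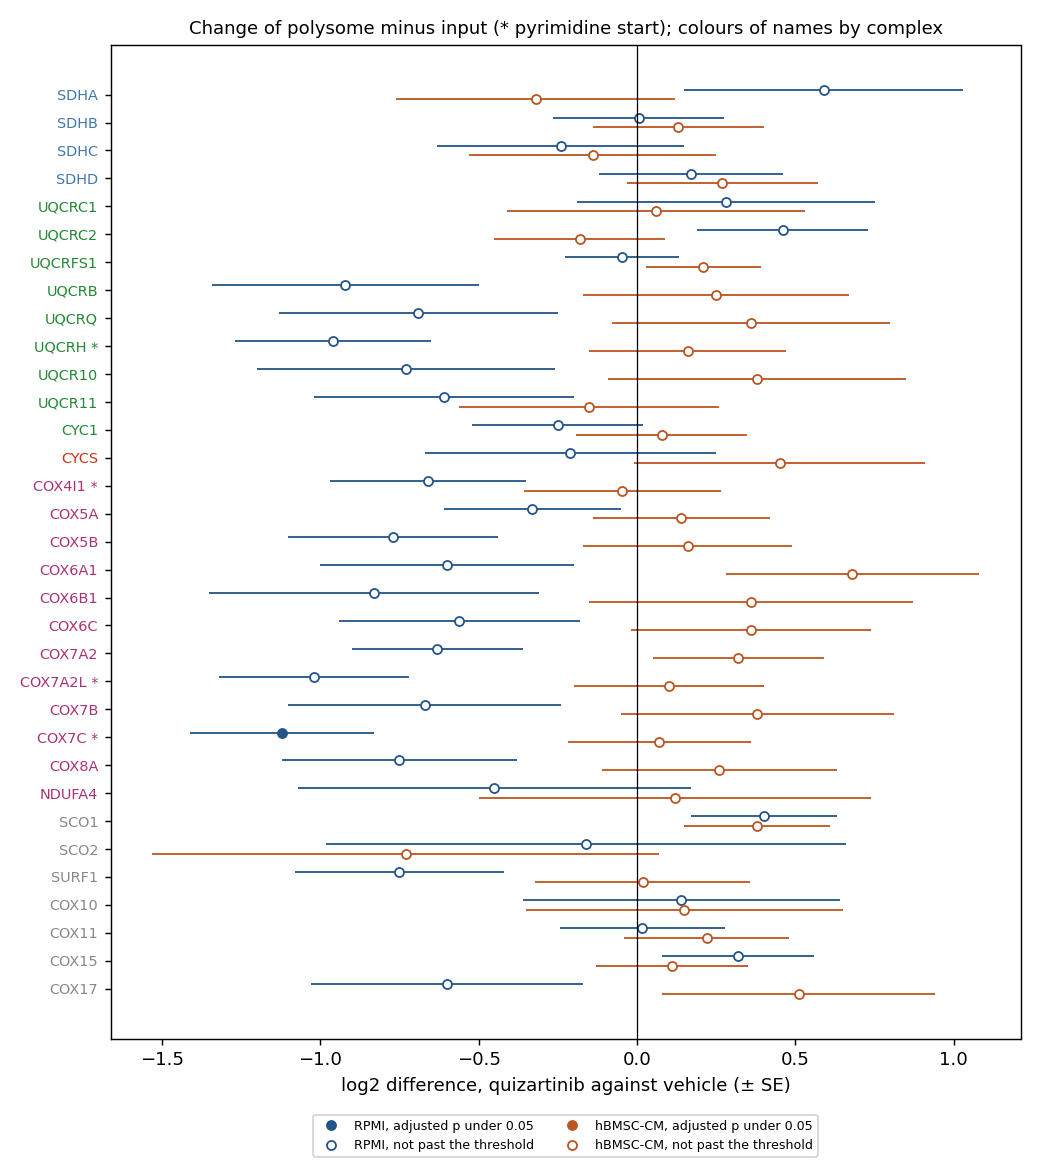
Change of log2 polysome minus input on quizartinib (x axis, ± SE, 3 cultures per group) for the 33 members (rows), in RPMI (blue points) and hBMSC-CM (orange points). Filled points passed an adjusted p of 0.05 and an asterisk marks a pyrimidine start. In RPMI the 12 complex IV members (purple names) lie between −1.12 and −0.33, and in hBMSC-CM 27 of the 33 members lie above 0, or 17 without the vehicle culture of replicate 3, which is not plotted.

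In hBMSC-CM the change in polysome minus input on quizartinib was positive for 27 of 33 members, with a median of 0.16, and 0.10 over all tested genes. This direction rested on 1 culture: without replicate 3 of vehicle 17 of 33 members were positive, with a median of 0.02, and 0.05 over all tested genes. In the same-numbered pairs the medians were −0.05, 0.16 and 0.31. For 3 members the quizartinib values lay above all vehicle values, against 3.83% of tested genes. No member and no other gene passed (edgeR, 0 members at an unadjusted p under 0.05, 0 by limma voom and 0 by DESeq2). The test of the difference between media, that is, whether the quizartinib effect on polysome minus input was the same in both, also called 0 of the 33 members (5 at an unadjusted p under 0.05) and 0.0% of tested genes by edgeR, and no member by limma voom or DESeq2. The difference was positive for all 12 complex IV members, from 0.47 to 1.28, with COX7C at 1.19 ± 0.41 (edgeR adjusted p = 0.892) and COX7A2L at 1.12 ± 0.42 (adjusted p = 0.951). Its median was 0.61 over the members and −0.04 over all tested genes, and without replicate 3 of vehicle in hBMSC-CM it was 0.65, positive for 27 of 33 members in both cases. This difference and the effect in RPMI rest on the same RPMI libraries.

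Compared directly under quizartinib, polysome minus input was higher in hBMSC-CM than in RPMI for 27 of 33 members and for all 12 of complex IV. For 10 members the hBMSC-CM values lay above all RPMI values, against 3.37% of tested genes. The median log2 difference was 0.40 over the members and −0.09 over all tested genes, and again none passed by edgeR (3 at an unadjusted p under 0.05), limma voom or DESeq2, nor did any other gene by edgeR (0.0%). By same-numbered pair the medians over the members were 0.22, 0.54 and 0.27, highest for replicate 2, whose polysome library in hBMSC-CM stood high. COX7A2L had the largest value, 0.83 ± 0.30, and UQCRH was at 0.77 ± 0.31. Without drug the median was −0.18 (−0.14 without replicate 3 of vehicle in hBMSC-CM), and for 1 member the hBMSC-CM values lay above all RPMI values and for 4 below them, against 3.03% and 3.22% of tested genes, with 0 calls by edgeR (1 at an unadjusted p under 0.05), limma voom and DESeq2.

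Adding everolimus to quizartinib in hBMSC-CM gave a median change in polysome minus input of −0.06 over the members and 0.05 over all tested genes. It was negative for 10 of 12 complex IV members and for CYCS, at −0.53 ± 0.46. In RPMI the median was −0.08. No member passed in either medium by edgeR (0 at an unadjusted p under 0.05 in both), limma voom or DESeq2, nor did any other gene by edgeR (0.0%). In hBMSC-CM the pyrimidine-start members had a median of −0.33, from −0.37 to −0.16, and the other 22 members −0.05, from −0.53 to 0.83. The 2 ranges overlapped, as they did for the quizartinib change in RPMI. For tested genes the medians of this comparison were −0.03 with such starts and 0.07 with others. Everolimus alone in hBMSC-CM gave a median of 0.16 against vehicle (0.03 without replicate 3 of vehicle) and no call by edgeR (2 at an unadjusted p under 0.05), limma voom or DESeq2. There the pyrimidine-start members had a median of −0.02, from −0.11 to 0.13, and the other 22 members 0.20, from −0.67 to 0.72. Among tested genes the medians were −0.03 for such starts and 0.03 for others.

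Other assembly and partner factors, a list of 43 genes of which 32 were tested, included 7 calls in input on quizartinib in RPMI, 6 lower and 1 higher, with a median of −0.29. Of all tested genes 34.6% were called there, 18.0% lower and 16.6% higher. COA7, needed for complex IV assembly, had a log2 difference of −1.99 ± 0.33 (edgeR adjusted p = 1.23e-05), TIMM21, an inner membrane protein of import and assembly, of −1.83 ± 0.37 (adjusted p = 0.000164), and COA4 of −1.71 ± 0.33 (adjusted p = 0.000102). In hBMSC-CM 1 of the 32 was called, UQCC2, a complex III assembly factor, at −1.18 ± 0.40 (edgeR adjusted p = 0.0477), against 12.3% of tested genes called. In polysome minus input on quizartinib edgeR called 0 of them in either medium, with medians of −0.31 in RPMI and 0.22 in hBMSC-CM. Within the conditions 13 to 19 of them were called in polysome minus input, against 57.9% to 65.4% of tested genes, and with vehicle in RPMI 7 were higher and 11 lower, against 31.5% and 33.9%.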

How the data were processed

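Per the labels and methods, the authors isolated heavy polysomes on sucrose gradients and made poly(A) libraries. Reads were trimmed with BBDuk and aligned to hg38 (Ensembl release 96) with STAR 2.6.0a. The deposited values are raw counts per gene, with no normalization or filter. Whether counting used strand is not given in the sources used here.

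Columns were matched to samples by their names, and groups came from the labels. Rows sharing a gene name were summed (58884 rows, 57353 names), and 12939 names were kept, whose averages over the libraries reached 1 count and 1 CPM. All 42 libraries entered 1 robust quasi-likelihood fit (R 4.3.3, edgeR 4.0.16) with 14 group means, TMM factors (1.06 to 1.25 for input, 0.705 to 1.04 for polysome) and no block. Adjustment ran over all tested genes, at a threshold of 0.05. Changes in polysome minus input are interactions with the fraction. Values per culture are log2 CPM with a prior count of 2. The code was tested on simulated data. Alternatives were limma voom (limma 3.58.1), DESeq2 1.42.0, RLE factors, library size only, no filter, a mean of at least 10 CPM, only the groups compared, 3 forms of replicate block, and each culture left out.

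Deviations of same-numbered libraries from their group means correlated at 0.156 to 0.715 in 36 pairs of libraries. These pairs were of the same fraction, from compared conditions without everolimus alone. The numbers were therefore used as pairs in the fits with a block and in the same-numbered comparisons. The main fit did not use them, and it took input and polysome libraries of 1 culture as independent. With everolimus alone the 6 values lay between −0.0898 and 0.0267. Input and polysome libraries of the same condition and number correlated at −0.0438 to 0.303 in the other 6 conditions. The labels give no source of the pairing.

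Positions and lengths are from GENCODE v44 (GRCh38), matched by gene ID for 58472 rows, and promoters from RefSeq (GRCh38.p14). All 33 members could be named. Per-library values and full statistics were given for up to 4 called members per direction with the largest difference, and for CYCS, COX5A and SDHA where called. The per-culture values of NDUFA4, COX7A2L and UQCRH, and of CYCS where it was not called, fall outside that rule and were added after they were seen. The members, the lists and the tests were chosen with earlier results of these data known.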

Additional observations from a re-analysis of the deposited data

How the results depend on the processing

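Over the 124 calls of members, 76 held under every alternative that was run. Of 1641 alternative values of these calls 1472 kept their direction and their side of the threshold, 168 kept the direction and no longer passed, and 1 changed sign: SCO1, polysome minus input with combo in hBMSC-CM, at −0.039 with library size only. For members called in input on quizartinib in RPMI (11), the count was 7 with no filter on low counts and 8 to 11 with each culture left out. For the same comparison in hBMSC-CM (6), it was 3 with library size only, 3 with no filter, 3 with only the groups compared, 13 with the replicate block, 18 with the replicate block within each fraction, and 1 to 11 with each culture left out (11 without vehicle replicate 2, 1 without quizartinib replicate 2). For polysome minus input on quizartinib in RPMI (1), it was 3 by DESeq2, 2 with RLE factors, 0 with library size only, 2 at a mean of 10 CPM, 2 with the replicate block, 8 within each fraction, 0 with the block per culture, and 0 to 1 with each culture left out. Input in hBMSC-CM against RPMI under quizartinib (0) gave 1 with either of the first 2 blocks, and the difference between media in the input effect of quizartinib (0) gave 1 with the block within each fraction. With everolimus alone the replicate numbers did not track the others. There, input (0) gave 1 with only the groups compared, 1 with the replicate block and 4 within each fraction. Polysome minus input (13) gave 22 with only the groups compared. Shares of tested genes for the first 2 blocks of the quizartinib effects are given above, and they rose along with the member counts. No such share is given for the other alternatives, so those counts are not read as results about the members. The blocks moved no other total by over 1.5 times, but in polysome minus input the lower calls with combo in hBMSC-CM went from 2 to 6 within each fraction (COX7C, CYCS, UQCRB and UQCRH added), those with vehicle in hBMSC-CM from 2 to 3 within each fraction and to 1 per culture, and those with vehicle in RPMI from 0 to 1 with either of the first 2 blocks. The median polysome minus input of members under 100 residues was −0.15 with vehicle and −0.63 with quizartinib in RPMI with library size only. The median input level with vehicle in RPMI was 43.6 CPM per kb by the union of exons. Beyond the settings that use fewer genes or samples, the cause was not tested. The number of cultures (3 per group) limits the interaction tests, and SCO2 is limited by its depth.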
